A study of Mus musculus with 3 samples.

Results

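The 10 genes described here are the muscle actins Acta1, Actc1, Acta2 and Actg2, the intermediate filament gene Des, and the smooth muscle contractile genes Tagln, Cnn1, Myh11, Smtn and Lmod1. They were chosen by symbol, through the RefSeq name of each probe's transcript, and account for 10 of 32176 genes and 11 of 39429 non-control probes on the array. A transcript without a RefSeq name counts as a gene of its own here. Smtn had 2 probes and every other gene had 1. Of the 10 genes, 8 passed the filter on dim probes, and these 8 were well above background in both genotypes on all 3 arrays, while Myh11 and Lmod1 were not tested.

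Actin filaments slide along myosin to produce force in every muscle. Mammals have separate actin genes for skeletal muscle (Acta1), heart (Actc1), vascular smooth muscle (Acta2) and enteric smooth muscle (Actg2), besides the cytoplasmic actins Actb and Actg1 of all cells. The embryonic heart is known to express the skeletal and vascular smooth muscle actins and transgelin before they are restricted to their adult tissues, so Acta1, Acta2 and Tagln are not markers of a single muscle type at this stage. Myh11 is the most restricted smooth muscle marker among these genes.

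Hopx-/- embryoid bodies (null) were compared with Hopx+/- embryoid bodies (heterozygous), both collected on day 8 of cardiac differentiation. No wild-type culture was among the samples analysed. Hopx encodes a small homeodomain protein of heart and progenitor cells, and embryoid bodies are aggregates of differentiating embryonic stem cells. Both genotypes came from blastocyst-derived stem cells grown on feeder cells and were differentiated in the same serum-free medium. It held added GlutaMAX (2 mM), ascorbic acid (1 mM) and the growth factors FGF10 (12.5 ng/ml), bFGF (10 ng/ml) and VEGF (5 ng/ml). Drops of 20 µl were used. Each of the 3 replicates was a 2-colour Agilent array holding RNA of a null and a heterozygous culture. How many stem cell lines stood behind the replicates is not stated in the labels, so the p-values reflect only how far these samples spread, which may be technical, and genotype and line cannot be told apart. In whole cultures, fewer cells of a type and less RNA per cell cannot be told apart either.

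On an array, 61.9% to 72.9% of the non-control spots exceeded background clearly in the channel of a given genotype, and with 3 arrays the precision is limited. The labels place the null RNA in Cy5 on every array, but as labelled the ratios of array 3 correlated at r = -0.903 with array 1 and r = -0.902 with array 2 over 24327 probes (probes are not independent replicates), against r = 0.939 between arrays 1 and 2. The authors' deposited values run opposite to the scanner ratios on array 3 only (r = -0.941, against 0.959 and 0.951). The direction of array 3 is therefore not settled by the labels, and its ratios were turned as in the authors' values. Hopx was lower in null cultures by this direction, at -2.98, -2.97 and -3.45 on the 3 arrays. Left as labelled, array 3 reduced the calls of limma to 0 genes (61 had an unadjusted p under 0.05), and the mean log2 ratios were -0.05 for Acta1, -0.30 for Actc1, -0.01 for Acta2, 0.48 for Actg2, -0.47 for Des, 0.15 for Tagln, 0.26 for Cnn1 and 0.15 for Smtn. From arrays 1 and 2 alone the means were -0.46 for Acta1, -1.47 for Actc1, -0.25 for Acta2, 1.82 for Actg2, -1.25 for Des, 0.53 for Tagln, 0.39 for Cnn1 and 0.15 for Smtn.

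The muscle actins did not move together. In null cultures the enteric smooth muscle actin Actg2 rose 3.85-fold, and the cardiac actin Actc1 fell, with a 3.16-fold lower signal. Acta1 and Acta2 were lower by smaller amounts that depended on how the arrays were scaled. Among the other genes Des fell, with a 2.29-fold lower signal, Tagln rose 1.47-fold, and Cnn1 and Smtn did not pass the test. In all, limma called 6 of the 8 tested genes at adjusted p under 0.05, with 2 higher and 4 lower in null cultures. Over all 19803 genes tested, 60.3% were called, 30.2% higher and 30.1% lower, so this count lies near the background. Of the 8, 3 were called and differed by 2-fold or more, 1 higher and 2 lower, against 10.9% of all genes, 4.87% higher and 6.03% lower. By an ordinary t statistic, which shares no spread between probes, Actc1 (adjusted p = 0.0548), Acta1 and Acta2 missed the threshold. The plot of signals by genotype shows the values behind these calls.

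**Figure D1:**
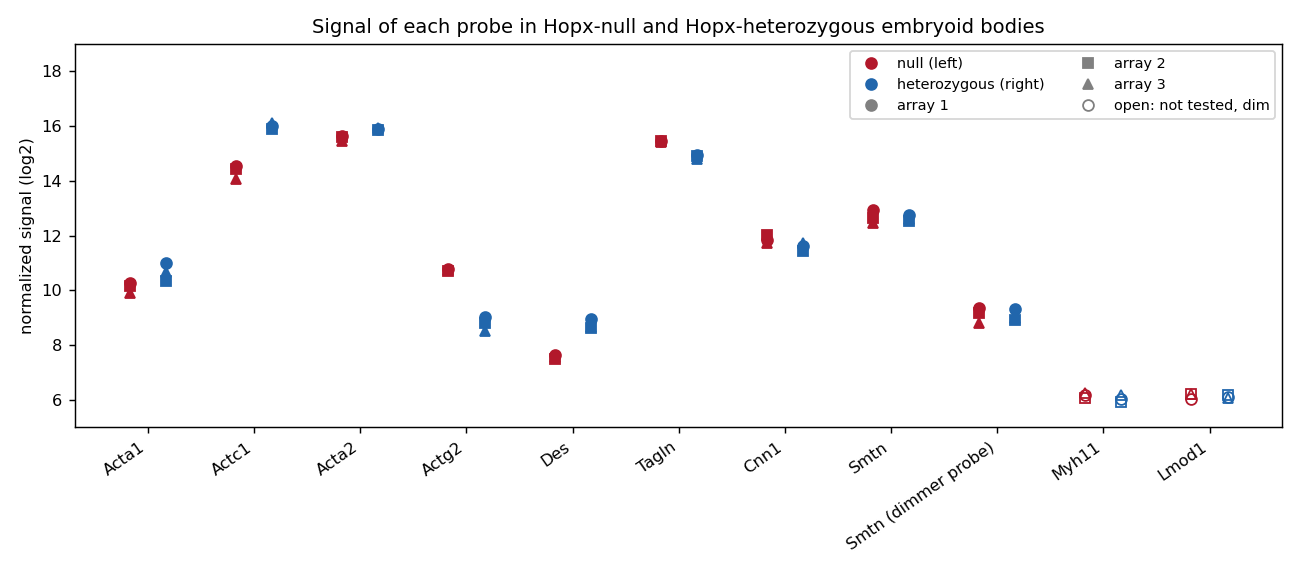
Normalized log2 signal of each of the 11 probes (vertical axis) in null (left, red) and heterozygous (right, blue) embryoid bodies, with a marker shape for each array and open markers for probes that were not tested. Actg2 lies higher in null cultures, Actc1 and Des lie lower, and Myh11 and Lmod1 lie near 6 in both genotypes. Signals of different probes cannot be compared with each other.

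Actc1, the main sarcomeric actin of the heart, had log2 signals of 14.54, 14.42 and 14.08 in null cultures, against 16.02, 15.88 and 16.13 in heterozygous cultures. The groups did not overlap, as for 52.6% of all genes tested. Its log2 ratio was -1.66 (SE 0.12, n = 3 arrays, adjusted p = 9.5e-06 by limma), with array values of -1.48, -1.46 and -2.04. It ranked 341 from the lowest ratio of the 19803 genes. Actc1 was bright enough that its heterozygous spot on array 3, at a foreground of 65523, sat at the ceiling of the scanner. A signal there is only a lower bound, so the ratio of array 3 may understate the difference. The scanner software did not flag that spot as saturated. Without that spot the mean of the other arrays was -1.47 (adjusted p = 1.6e-05).

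Acta1, the actin of adult skeletal muscle, had log2 signals of 10.27, 10.16 and 9.89 in null cultures, against 11.00, 10.36 and 10.67 in heterozygous cultures. The groups did not overlap, but the nearest values lay close. Its ratio was -0.57 (SE 0.12, n = 3, adjusted p = 0.0035 by limma), and the array values of -0.73, -0.20 and -0.79 show that array 2 gave the smallest difference. Centring each array on its median, without the loess step that removes the dependence of the ratio on brightness, left Acta1 at -0.20 with adjusted p = 0.153. That setting moved the median of all genes from about 0 to 0.23, and relative to it Acta1 stood at -0.43.

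Acta2, the vascular smooth muscle actin and a common marker of myofibroblasts, was measured with 10 spots. Its log2 signals were 15.66, 15.62 and 15.46 in null cultures, against 15.90, 15.87 and 15.93 in heterozygous cultures. The ratio was -0.32 (SE 0.09, n = 3, adjusted p = 0.0128 by limma), a 1.25-fold lower signal that turned to 0.11 (adjusted p = 0.532) with median centring without loess, or -0.12 relative to the median of all genes there. The spots of an array had SDs of 0.10, 0.05 and 0.06, and the 3 arrays an SD of 0.13. In the null channel 7 of 10 spots on array 1 and 2 of 10 on array 2 had foreground medians within 10 units of the saturation value of 65529, although the scanner software flagged 0 of them as saturated. Without such spots the ratio was -0.31 (adjusted p = 0.0162).

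Actg2, the actin of gut and other visceral smooth muscle, had log2 signals of 10.79, 10.70 and 10.73 in null cultures, against 9.04, 8.81 and 8.53 in heterozygous cultures. The 3 null values lay close together, and the lowest of them was above the highest heterozygous value. Its ratio was 1.95 (SE 0.10, n = 3, adjusted p = 1.6e-06 by limma), with array values of 1.75, 1.88 and 2.20. It ranked 132 from the highest ratio of all genes tested. Its spot was far below the scanner ceiling, with foregrounds of 1872, 1854 and 2402.5 in null cultures and 344, 380 and 323 in heterozygous cultures.

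**Figure D2:**
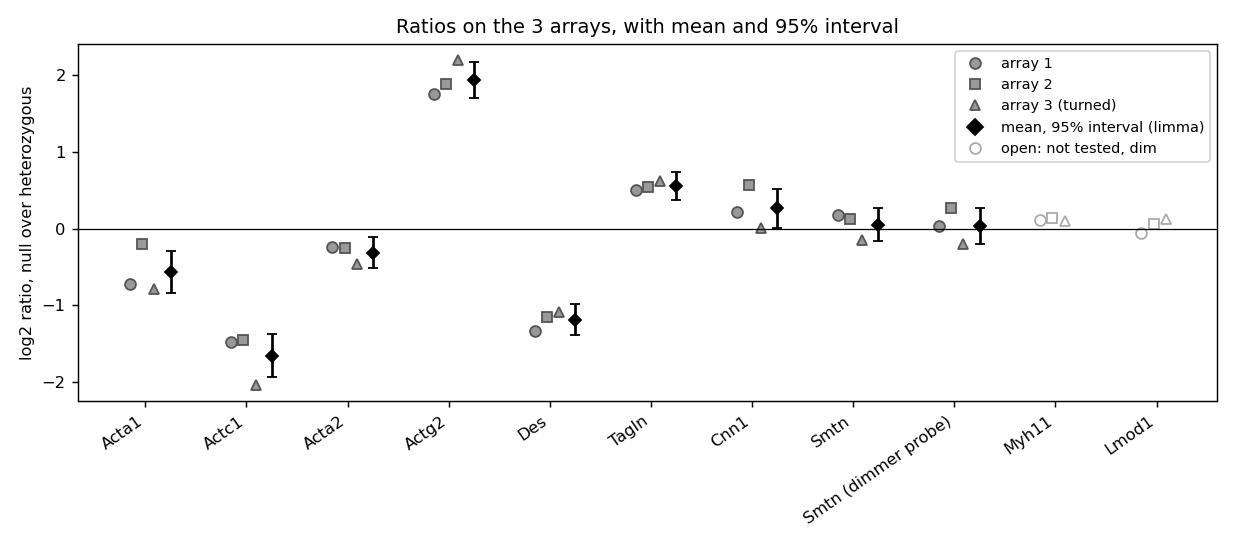
Log2 ratio of null over heterozygous (vertical axis) for each probe, with 1 marker for each array and a black diamond with its 95% interval from limma for tested probes. Actg2 and Tagln lie above 0 on all 3 arrays, Actc1, Des, Acta1 and Acta2 lie below 0 on all 3, and both Smtn probes straddle 0.

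The ratios of the actins were also set against each other within each array. Actg2 minus Actc1, as a difference of log2 ratios, was 3.23, 3.35 and 4.24, a mean of 3.61 ± 0.55 (SD, n = 3). The value of array 3 rests on the Actc1 spot at the scanner ceiling, and the mean without it was 3.29 (n = 2 arrays). Actg2 also exceeded Acta1, by 2.52 ± 0.45, and the other smooth muscle actin, Acta2, by 2.26 ± 0.35. Acta2 exceeded Actc1 by 1.34 ± 0.21, or by 1.24 without spots at the ceiling (n = 2 arrays). Within the striated pair, Acta1 exceeded Actc1 by 1.09 ± 0.29, or by 1.01 without that Actc1 spot (n = 2 arrays). These differences had the same sign on all 3 arrays. For Acta2 minus Acta1 the sign differed between arrays, with values of 0.49, -0.05 and 0.32 (mean 0.25 ± 0.28).

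The mean of the smooth muscle pair minus that of the striated pair was 1.86, 1.65 and 2.28 (1.93 ± 0.32, SD, n = 3, exact sign-flip permutation test, two-sided p = 0.25, the smallest that 3 arrays allow). Without spots at the ceiling, which left out array 3, it was 1.76. With median centring without loess it was 1.91 and in the authors' values 1.69. Acta2 and Acta1, 1 of each class, lay within their spread of each other. The 6 pairwise differences have the same smallest p of 0.25, which Acta2 minus Acta1 did not reach (exact p = 0.5).

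**Figure D3:**
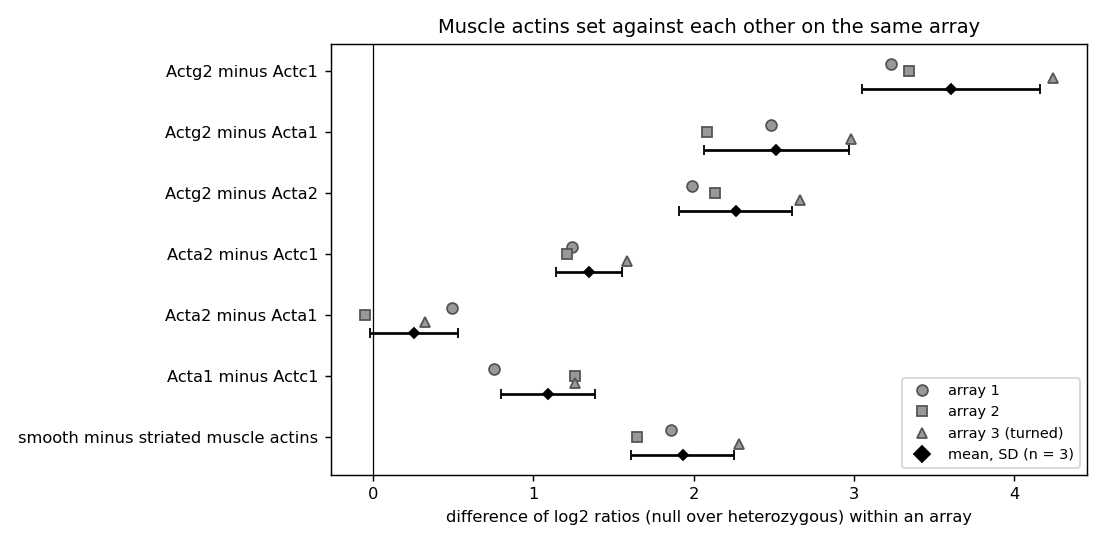
Differences between the log2 ratios of muscle actins on the same array (horizontal axis), with 1 marker for each array and a diamond with SD for the mean of 3. Actg2 exceeds each of the other actins on all 3 arrays, Actc1 lies lowest, and the difference between Acta2 and Acta1 straddles 0.

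The cytoplasmic actins gave no firm direction. Actb had array values of -0.67, -0.55 and -0.33 (ratio -0.52, SE 0.09, adjusted p = 0.0015 by limma), yet its null spot sat at the scanner ceiling on all 3 arrays. On array 3 its heterozygous spot sat there too, so that ratio rests on clipped signals in both channels. Actb was -0.09 with median centring without loess and 0.36 in the authors' values. For Actg1 the ratios were 0.50, 0.40 and -0.34, so that the turned array had the opposite sign (mean 0.19, SE 0.15, adjusted p = 0.313). Of 4 other kept Actg1 probes, 3 were called higher, at 0.45, 0.60 and 0.64. Actins are closely related genes, and with no probe sequences used here cross-hybridization between them was not tested.

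The promoters of 3 muscle actins are shown because the CArG box, the binding site of serum response factor (Srf), is the element these genes are known to share. Sequences are from RefSeq (GRCm38.p6), all on the minus strand, read 5′ to 3′ upstream of the annotated start, and capitals mark a CArG box with at most 1 letter changed.
Acta1, chr8:123894829-123894990: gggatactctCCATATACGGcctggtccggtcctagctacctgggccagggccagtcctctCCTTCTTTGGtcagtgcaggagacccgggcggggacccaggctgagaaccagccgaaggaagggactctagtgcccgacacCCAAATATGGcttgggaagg
Actc1, chr2:114052903-114053060: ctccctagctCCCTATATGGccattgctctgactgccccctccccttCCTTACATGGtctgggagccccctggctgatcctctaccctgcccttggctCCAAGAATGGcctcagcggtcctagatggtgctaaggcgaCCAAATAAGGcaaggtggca
Acta2, chr19:34255388-34255467: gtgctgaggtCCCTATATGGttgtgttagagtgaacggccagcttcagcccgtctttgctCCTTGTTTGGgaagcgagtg

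Actc1 had 4 such boxes, Acta1 had 3 and Acta2 had 2. The last box printed for Acta1 and for Actc1 matched the CArG box exactly. The cytoplasmic actin Actg1, not printed, also held an exact box, starting at -90 relative to its annotated start. An exact box was present in 1.63% of 32851 promoters of 300 bases, while 21.1% held a box with at most 1 letter changed and 3.70% held 2 or more. Of the 10 genes, 7 had a promoter in the table, while Actg2, Tagln and Myh11 had none there and were not searched. Among the 7, besides the muscle actins shown, only Lmod1 held a box, with 2 that each had 1 letter changed. The MCAT letters CATTCC, searched on both strands and present in 14.7% of promoters, were found in Acta1, Acta2, Lmod1 and Smtn. A match describes the letters in this window and is not evidence of binding. Of 203 tested genes with an exact CArG box, 58 (28.6%) were called higher and 74 (36.5%) lower, with a median log2 ratio of -0.03. Of 11599 without, 3744 (32.3%) were called higher and 3525 (30.4%) lower, with a median of 0.01. No test of the difference between these groups was made.

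Des encodes desmin, the intermediate filament that links myofibrils in cardiac, skeletal and smooth muscle, and was measured with 10 spots. Its log2 signals were 7.62, 7.48 and 7.55 in null cultures, against 8.96, 8.63 and 8.65 in heterozygous cultures. The groups stood apart by about 1 unit. The ratio was -1.19 (SE 0.09, n = 3, adjusted p = 9.5e-06 by limma), with array values of -1.34, -1.15 and -1.09. Single spots spread by an SD of 0.06 to 0.09 within an array, less than the 0.13 between arrays. Des ranked 821 from the lowest ratio of all genes. The size of its fall depended on the processing. It was -0.96 both with median centring without loess (-1.19 relative to the median of all genes there) and in the authors' values, under 2-fold. With the signals processed by the scanner software it was -1.55. Its median foregrounds were low, at 177.5, 169.25 and 246 in null cultures and 330.25, 329.25 and 364.5 in heterozygous cultures.

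Tagln encodes transgelin (SM22), an actin-binding protein of smooth muscle and of the early heart. Its log2 signals were nearly equal across null cultures, at 15.46, 15.46 and 15.43, against 14.95, 14.91 and 14.82 in heterozygous cultures. The ratio was 0.56 (SE 0.08, n = 3, adjusted p = 0.00046 by limma), and 0.51, 0.55 and 0.62 on the single arrays. Among the 6 called genes of the set it had the smallest spread, an SD of 0.06. With median centring without loess it was 0.99, or 0.76 relative to the median of all genes there.

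Cnn1 encodes calponin, which binds actin and slows its cycling with myosin in smooth muscle. Its log2 signals were 11.84, 12.02 and 11.75 in null cultures, against 11.63, 11.45 and 11.74 in heterozygous cultures. The groups touched, with the lowest null value beside the highest heterozygous value. Its ratio of 0.26 (SE 0.11, n = 3, adjusted p = 0.0766 by limma) missed the threshold, with values of 0.21 and 0.57 on arrays 1 and 2 and 0.0025 on array 3. Cnn1 passed without array 3 (0.39, adjusted p = 0.0076) and with median centring without loess (0.68, adjusted p = 0.0008). Relative to the median of all genes under that centring, Cnn1 stood at 0.45.

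Smtn encodes smoothelin, a cytoskeletal protein of contractile smooth muscle. Its brighter probe had log2 signals of 12.92, 12.65 and 12.45 in null cultures, against 12.75, 12.53 and 12.60 in heterozygous cultures, and the groups overlapped. The ratio was 0.05 (SE 0.09, n = 3, adjusted p = 0.695 by limma), and its 95% interval ran from -0.17 to 0.26. The dimmer probe gave 0.03 (95% interval -0.20 to 0.27). Both probes were above 0 on arrays 1 and 2 and below 0 on array 3, and with median centring without loess Smtn passed at 0.48 (adjusted p = 0.0065), or 0.26 relative to the median of all genes there.

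Myh11, the smooth muscle myosin heavy chain, exceeded background clearly in null cultures on 1 of 3 arrays and in heterozygous cultures on 0 of 3. Its log2 signals were 6.16, 6.08 and 6.26 in null cultures and 6.04, 5.93 and 6.17 in heterozygous cultures. Lmod1, the smooth muscle leiomodin that nucleates actin filaments, was not well above background on any array, at 6.03, 6.23 and 6.20 in null cultures and 6.09, 6.17 and 6.08 in heterozygous cultures. The ranges of the genotypes overlapped for both genes. Within arrays the null signal was the higher on 3 of 3 arrays for Myh11 and on 2 of 3 for Lmod1. Neither gene was tested, and no fold is given for signals this near background.

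Of 13 tested relatives of the 10 genes, 4 were higher and 4 lower (6 and 3 with median centring without loess), close to the shares of 30.2% and 30.1% over all genes. Lmod3, the skeletal and cardiac leiomodin, fell by 2.45 on the log2 scale (SE 0.08, adjusted p = 2.3e-07 by limma), while Lmod2 was not well above background. Synm, which encodes synemin, a partner of desmin, fell by 1.09 (SE 0.12), and 3 of its 4 other kept probes were also called lower. Nes, which encodes nestin, an intermediate filament of progenitor cells, rose by 1.99 (SE 0.11). Tagln2, the more widely expressed transgelin, rose by 1.16 (SE 0.11), but another of its probes was called lower, at -0.60.

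Of 35 other smooth muscle contractile and adhesion genes tested, 9 were higher and 16 lower, against 30.2% and 30.1% of all genes. Their median was -0.09, against 0.0034 over all genes tested. With median centring without loess 11 were higher and 11 lower, with a median of -0.01 and the median of all genes at 0.23. Tpm1, an alpha tropomyosin of striated and smooth muscle, fell by 1.58 (SE 0.09), with its 4 other kept probes between -1.79 and 0.14. Csrp2, a LIM protein of smooth muscle, fell by 1.30 (SE 0.10). Pdlim5, a LIM protein of the Z-disc and of stress fibres, fell by 1.27 (SE 0.12), and of its other probes 1 gave -1.26 and 1 gave -0.07.

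Among 28 tested regulators of smooth muscle genes, 5 were higher and 15 lower, against 30.2% and 30.1% of all genes. The 28 regulators had a median of -0.25. Of these, 4 were higher and 5 lower by 2-fold or more, against 4.87% and 6.03% of all genes. Only the largest changes are named. With median centring without loess 9 were higher and 8 lower, and the median turned to 0.08, below the 0.23 of all genes. Myocd, which encodes myocardin, the coactivator of Srf in heart and smooth muscle, fell by 2.88 (SE 0.10, adjusted p = 2.9e-07 by limma), at -3.14, -2.77 and -2.73. Klf4, a factor known to repress smooth muscle genes, fell by 2.01 (SE 0.09), and Tgfb2, a transforming growth factor ligand, fell by 1.45 (SE 0.08). Srf itself had values of 0.10, 0.20 and -0.30 (mean 0.0025, SE 0.11, adjusted p = 0.986), and its mean was below 0 in 4 alternatives. Its other coactivators did not pass with their brightest probes, Mrtfa at 0.20 (adjusted p = 0.146) and Mrtfb at -0.19 (adjusted p = 0.0750, and 0.21 with median centring without loess), although a dimmer probe of each did, at 0.30 and -0.33.

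Of 25 tested genes of actin filament assembly and turnover, 4 were higher and 11 lower, against 30.2% and 30.1% of all genes. Their median was -0.20. With median centring without loess 10 were higher and 8 lower, and the median turned to 0.14, below the 0.23 of all genes. Fhod3, a formin needed for cardiac sarcomeres, and Nebl, the cardiac nebulette, each fell by 1.88 (SE 0.10 and 0.13). Gsn, which encodes the filament-severing protein gelsolin, fell by 1.63 (SE 0.08). Neb, Nrap and Xirp2, further proteins of striated muscle, were not tested because their probes were dim.

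Markers of 6 other cell types were read from the same arrays, where 30.2% of all genes tested were called higher and 30.1% lower. All 14 cardiomyocyte markers were lower in null cultures (median -3.33, mean log2 signal 8.53 to 9.07 in null arrays against 12.09 to 12.35 in heterozygous arrays). Of 12 tested fibroblast and feeder markers, 9 were higher and 1 lower, or 2 and 0 by the ordinary t statistic (median 0.64, mean log2 signal 10.57 to 10.96 in null arrays against 9.57 to 10.26 in heterozygous arrays). For pericytes 1 of 5 tested was higher and 2 lower. Their mean log2 signal was 8.69 to 8.99 in null arrays against 8.66 to 8.80 in heterozygous arrays. The higher one, Abcc9, exceeded background clearly in heterozygous cultures on only 1 array. Of the 4 pericyte markers kept when both channels had to be well above background, 0 were higher and 2 lower. Median centring without loess gave 3 and 0 of the 5, and shifted the all-gene median to 0.23. Of 9 tested skeletal muscle markers, 3 were higher and 2 lower (mean log2 signal 7.05 to 7.35 in null arrays against 7.20 to 7.51 in heterozygous arrays), and Myod1, Myog, Myf5, Myf6, Ckm, Chrna1 and Pax7 were not well above background in either genotype by the filter used. All 5 endothelial markers were higher, 3 of them in the authors' values and 0 by the ordinary t statistic (mean log2 signal 9.56 to 9.78 in null arrays against 8.72 to 9.05 in heterozygous arrays). All 6 visceral endoderm markers were lower (mean log2 signal 10.13 to 10.47 in null arrays against 13.16 to 13.43 in heterozygous arrays). The part of these cell types in the ratios of the actins was not tested.

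The genes whose 3 array ratios lay nearest to an actin's were sought among 14076 named genes, by the largest difference on any array. For Actg2 they were Jakmip2 (0.11) and Pnma2 (0.14), and for Actc1 Slc24a2 (0.11) and Akap5 (0.12). For Acta2 they were Map3k8 (0.011) and Ctps2 (0.018), and for Acta1 Tmem102 (0.044) and Chmp4b (0.093). Likeness over 3 ratios is a description and says nothing of shared function, and another Pnma2 probe was called in the opposite direction.

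**Figure D4:**
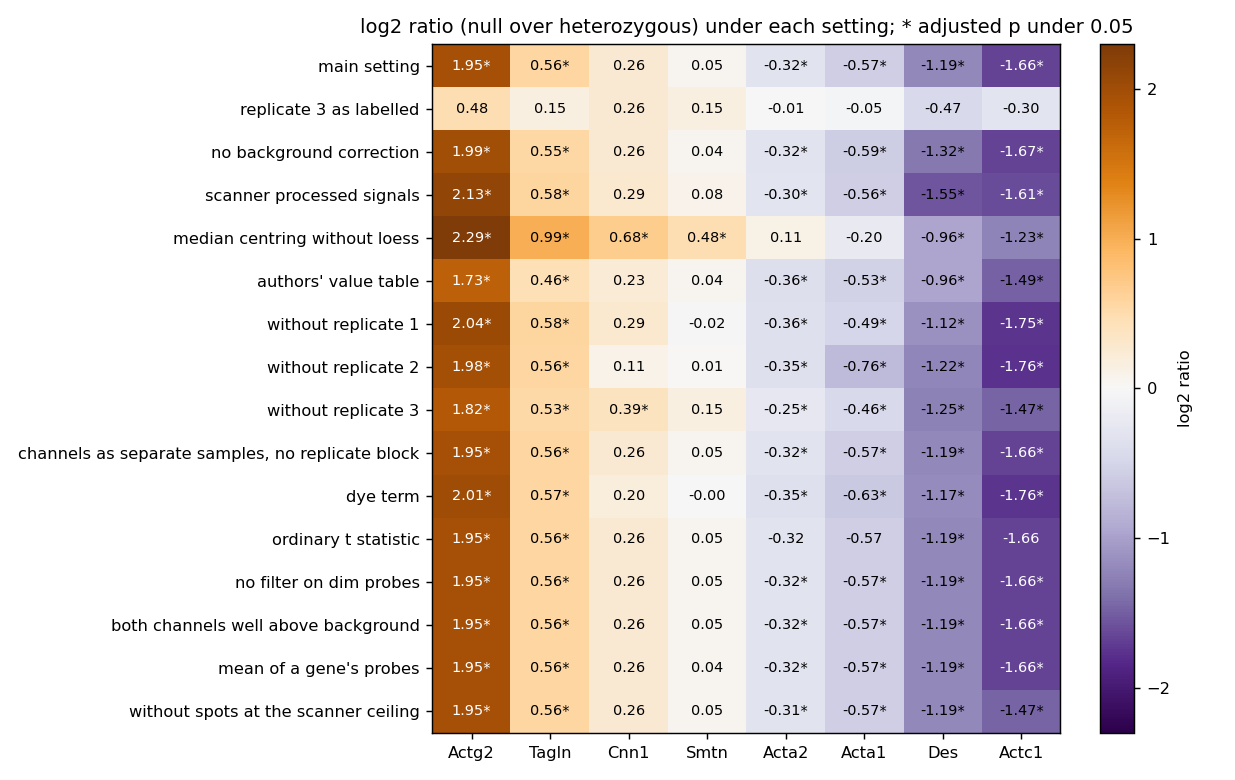
Log2 ratio of null over heterozygous for the 8 tested genes (columns) under the main setting and each alternative (rows), with an asterisk where adjusted p was under 0.05. Actg2 and Tagln stay above 0 and Actc1 and Des below 0 in every row, and, of the alternatives shown, only median centring without loess turns Acta2 above 0.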

How the data were processed

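The deposited files hold spot intensity values in 2 channels, extracted, per the file headers, by version 11.5.1.1 of Agilent Feature Extraction. Version 8.5.1.1 is given in the submitters' processing notes. The authors also deposited a table of normalized values, read here as log2 ratios, whose normalization and centring are not given in the sources used here (column medians -0.10, -0.11 and 0.07). Centring near 0 does not show the base of the logarithm. Their scale was close to that of the log2 ratios of the main setting, with Actc1 at -1.49 against -1.66 and Actg2 at 1.73 against 1.95. The log10 ratio column that the scanner software made, per the file headers, was not used.

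With limma 3.58.1 in R 4.3.3, foreground medians were corrected by normexp (offset 50), ratios were normalized by loess within arrays, outlier spots were left out and spots of a probe were averaged. Signals by genotype were taken after Aquantile scaling. Array 3 was turned, so that 2 arrays have one dye orientation and 1 the other, which leaves dye effects partly in the mean. The filter kept 24553 of 39429 probes, those above background in at least 1 genotype on all 3 arrays. Each ratio was tested against 0 by lmFit and eBayes with Benjamini-Hochberg adjustment over all kept probes, and a gene took its brightest probe. SEs are the moderated ones, which share spread between probes.

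Names came from RefSeq accessions (GRCm38.p6) for 71.1% of probes. The rest were counted under their own transcript identifiers, and 14884 of the 19803 genes tested had a RefSeq name. The array was designed on mm9. Genes named beyond the 10 are the cytoplasmic actins, relatives called at 2-fold or more, up to 3 called genes of each list with the largest change, Srf and its coactivators, and the nearest patterns. Of the marker lists only counts and signals are given. The genes and lists were chosen with earlier results of these data known. The fit was tested on simulated ratios. The alternatives concerned the direction of array 3, background, scaling, filter, probe rule, variance, dye, pairing and replicates.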

Additional observations from a re-analysis of the deposited data

How the results depend on the processing

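The alternative without spots at the scanner ceiling was chosen after seeing the data. Causes were not tested, except where the construction of an alternative shows them. Of the 8 tested genes, Actg2, Des and Tagln kept their call and direction in every alternative except array 3 as labelled, which by construction sets an array of opposite sign against the others. That alternative called 0 of all genes, with 61 at an unadjusted p under 0.05 by limma, and 0 of the 8, and left the smooth minus striated actin difference at 0.41. The ordinary t statistic, which shares no spread between probes, called 3996 genes and 3 of the 8: Acta1 (adjusted p = 0.155), Acta2 (adjusted p = 0.102) and Actc1 (adjusted p = 0.0548) lost their call, as did Nebl, Pdlim5, Synm, Tagln2 and Actb, and it called 0 endothelial and 2 fibroblast and feeder markers higher, against 5 and 9 in the main setting. Median centring without loess turned Acta2 to 0.11, ended the call of Acta1, added Cnn1 and Smtn, and gave 8540 genes higher and 3007 lower, against 5977 and 5966 in the main setting. Smtn, never called lower, ran from -0.018 to 0.15 without each replicate in turn and was -0.0035 with a dye term. The authors' values called 3910 genes higher and 4250 lower. Without each replicate in turn, 9810 to 11826 genes and 6 to 7 of the 8 were called, with the class difference between 1.75 and 2.07. With the channels treated as unpaired samples (no replicate block), limma called 8140 genes and the same number of the 8, 6. Each array pairs its genotypes by design. Over all fixed lists, 60 of 330 counts under an alternative differed from the main count by more than 1.5 times. Signal limits Myh11 and Lmod1, which were dim, and the ceiling limits Acta2, Actc1 and Actb.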
